A study of Arabidopsis thaliana with 6 samples.

Results

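Glucosinolate synthesis genes and their MYB regulators were examined in 2 adjoining pieces of the Arabidopsis thaliana root apex. The set was fixed by locus and held 10 genes: CYP79F1, CYP79F2, CYP83A1, MAM1, MYB28 and MYB29 of the aliphatic branch, and CYP79B2, CYP79B3, CYP83B1 and MYB34 of the indole branch. By locus, 9 of the 10 had a probe set among the 22746 tested, 5 of them aliphatic and 4 indole. CYP79F2 (AT1G16400) had none under its own locus. The probe set listed under CYP79F1 (AT1G16410) is of the s_at kind, which can match near-identical transcripts, and the authors' deposited table gives it the gene name CYP79F2. These 2 genes lie next to each other in the TAIR10.1 annotation, and the value given for CYP79F1 below cannot be divided between them.

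The roots came from wild-type seedlings of the accession Col-0, aged 8 days, which had grown in continuous light at 19 °C on vertical plates. Zone II was the 1.5 mm section that holds the elongation and root hair zones, and zone I was the terminal 0.5 mm with the root cap and the dividing cells. Each zone was measured on 3 arrays, with biotin as the label of the hybridised material, and all 6 samples share genotype, age and growth conditions. Whether the arrays of a zone stand for separate batches of seedlings is not said in the labels, and the p-values therefore reflect only how far these arrays spread, which may be technical.

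Glucosinolates are sulfur-rich defence compounds of the cabbage family that release toxic products when tissue is crushed. Aliphatic glucosinolates start from methionine whose side chain is first lengthened in the plastid, with MAM1 as a condensing enzyme, and indole glucosinolates start from tryptophan. In each branch a CYP79 enzyme makes an aldoxime and a CYP83 enzyme oxidises it, after which sulfur is added and the molecule is closed by shared steps of cleavage, glucosylation and sulfation. MYB28 and MYB29 are known activators of the aliphatic genes, and MYB34 is known to activate the indole genes.

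The labelled tissues were checked against markers. Summed signals of 5 endodermal CASP genes were 27404 to 46445 in zone II and 33.2 to 96.3 in zone I, and those of 4 root hair genes were 23342 to 35683 and 57.6 to 261. Xylem and phloem lists were also higher in zone II in all 3 measured genes each. Dividing-cell markers summed to 156 to 786 in zone II and 2824 to 4755 in zone I, and root cap markers to 45.0 to 195 and 337 to 1151. On zone II array 1 the dividing-cell sum was highest of that zone, and on zone I array 1 the root cap sum was lowest of that zone. The dividing-cell sum on zone II array 1 came mostly from KN (338) and CDKB2;1 (396). CYCB1;1 was highest on zone II array 2, and PLT1 and PLT2 were lowest on zone II array 1. The 1 measured shoot marker, RBCS1A on an s_at probe set, had signals of 705 to 2435 in zone II and 139 to 409 in zone I. The part that these differences in cell types play in the results was not tested, and in bulk tissue fewer cells of a type cannot be told apart from less RNA per cell.

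MYB28, the activator of aliphatic glucosinolate genes, and the CYP79F1 probe set were higher in zone II, each on all 3 arrays, while MYB29 was called higher in zone I from signals that were low on every array. None of the 4 indole members was called by limma without a replicate block, and none had an unadjusted p under 0.05. With the replicate number as a block, CYP83B1 and MYB34 were called (limma adjusted p = 0.0109 and 0.0408). Without the block, as in all that follows unless said, 3 of 9 members passed an adjusted p under 0.05 (limma, Benjamini-Hochberg over all probe sets), where 37.9% of all probe sets did. Of these, 2 were higher in zone II, where 18.1% of all probe sets were, and 1 was higher in zone I, where 19.8% were. With 64 added to every signal, 3 members were again called, where 40.3% of all probe sets were. The arrays of the zones did not overlap for 3 of 9 members, against 49.9% of all probe sets. For 2 of these zone II was the higher, against 23.5% of all probe sets, and for 1 zone I was, against 26.4%. The count of calls among the members was thus near the background, and the results lie in the individual genes. The median difference of the 9 members was 0.55 on the log2 scale, zone II minus zone I, against -0.04 for all probe sets.

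**Figure D1:**
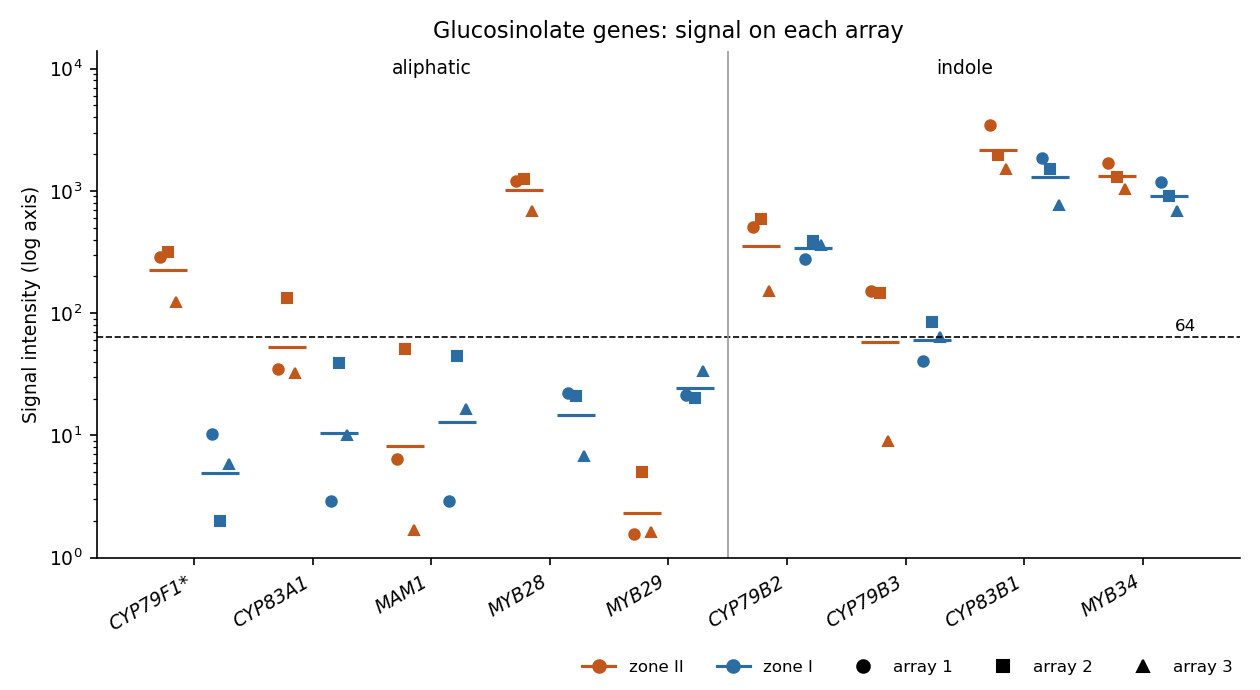
Signal intensity of each member on each array, on a log axis, with zone II left of zone I for each gene, marker shape for the array and a line at the geometric mean of the 3 arrays. The dashed line marks a signal of 64, and the asterisk marks the probe set shared by CYP79F1 and CYP79F2. MYB28 lies between 689 and 1241 in zone II and between 6.75 and 22.3 in zone I, while the zones overlap for the 4 indole genes.

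MYB28 (AT5G61420) had signals of 1203, 1241 and 689 on the zone II arrays, against 22.3, 21.2 and 6.75 on the zone I arrays. Every zone II array stood above every zone I array, and array 3 was the lowest in zone II as in zone I. The log2 difference was 6.10 ± 0.56 (SE, n = 3 per zone, limma adjusted p = 1.45e-05), a 68.6-fold higher geometric mean. Because the zone I signals lay in the dim range, where 37.3% to 39.6% of zone I probe sets had a signal under 64, the difference was also taken with 64 added to every signal. On that scale it was 3.74, or 13.4-fold, with an adjusted p of 5.48e-06. MYB28 kept its call in all 15 alternative settings, with differences of 3.74 to 6.40.

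MYB29 (AT5G07690), the close relative of MYB28 in the same branch, had signals of 1.56, 5.00 and 1.63 in zone II and of 21.5, 20.1 and 33.6 in zone I. The zones did not overlap, and zone I was higher, but no array reached 64. The log2 difference was -3.39 ± 1.04 (SE, n = 3 per zone, limma adjusted p = 0.024), and with 64 added it was -0.41 (adjusted p = 0.0368). The call ended when zone II array 1 or 3 was left out (adjusted p = 0.0643 and 0.0625) and when zone I array 1, 2 or 3 was left out (0.0533, 0.0511 and 0.0826). Dropping array 1 in each zone ended it as well (0.109). MYB28 and MYB29 were therefore called in opposite directions, the second from signals whose presence above background is unknown, since no detection calls came with the values.

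Among the aliphatic enzymes, the CYP79F1 probe set, for the cytochrome P450 that turns chain-elongated methionine into aldoxime, read 289, 315 and 124 in zone II. On the zone I arrays it read 10.2, 2.01 and 5.86. All zone II arrays were above 64 and all zone I arrays far below it. The log2 difference was 5.51 ± 0.89 (SE, n = 3 per zone, limma adjusted p = 0.000548), a 45.5-fold ratio of geometric means. With 64 added it was 2.07, or 4.19-fold (adjusted p = 0.000323). The call held in the 14 alternatives that tested this probe set, with differences of 2.07 to 6.03.

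CYP83A1 (AT4G13770), which oxidises the aliphatic aldoximes, had signals of 34.7, 133 and 32.2 in zone II and of 2.90, 39.4 and 10.2 in zone I. Array 2 was the highest of each zone, and the zones overlapped. Its difference of 2.33 ± 1.12 (SE, n = 3 per zone) was not called (limma adjusted p = 0.132), and the 95% interval ran from -0.14 to 4.81. With 64 added the difference was 0.62. Only 1 of the 6 arrays, zone II array 2, lay above 64.

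MAM1 (AT5G23010), the condensing enzyme of chain elongation, had signals of 6.38, 51.3 and 1.70 in zone II and of 2.90, 44.6 and 16.6 in zone I. No array reached 64, the zones overlapped, and array 2 was again the highest in each. The difference of -0.65 ± 1.46 (SE, n = 3 per zone) was not called (limma adjusted p = 0.776). Its 95% interval, -3.88 to 2.58, leaves a zone difference of several-fold in either direction undetectable here.

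The uncalled differences of the 4 indole members ran from -0.05 to 0.75. MYB34 (AT5G60890), the activator of indole glucosinolate and tryptophan genes, had signals of 1702, 1291 and 1046 in zone II, against 1175, 910.5 and 689 in zone I. The ranges overlapped only between zone II array 3 and zone I array 1. The difference was 0.55 ± 0.25 (SE, n = 3 per zone, limma adjusted p = 0.116), with a 95% interval of -0.01 to 1.10. At the upper end that interval reaches a 2.15-fold higher level in zone II. With 1 array left out the MYB34 difference ran from 0.35 (without zone I array 3) and 0.36 (without zone II array 1) to 0.74, and it was not called (adjusted p = 0.0565 to 0.366).

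CYP83B1 (AT4G31500), which oxidises indole acetaldoxime and commits it to glucosinolates, had signals of 3461, 1966 and 1510.4 in zone II. In zone I they were 1869.7, 1509.8 and 768. Zone II array 3 lay below zone I array 1, so the zones overlapped. The difference was 0.75 ± 0.36 (SE, n = 3 per zone, limma adjusted p = 0.128), with a 95% interval of -0.04 to 1.53. With 1 array left out the CYP83B1 difference ran from 0.37 (without zone I array 3) and 0.41 (without zone II array 1) to 1.01, and it was not called (adjusted p = 0.0544 to 0.437).

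CYP79B2 (AT4G39950) and CYP79B3 (AT2G22330) both turn tryptophan into indole acetaldoxime. CYP79B2 had signals of 507, 590.0 and 152 in zone II and of 277, 392 and 360.0 in zone I, a difference of 0.07 ± 0.46 (SE, n = 3 per zone, limma adjusted p = 0.925). CYP79B3 had signals of 151, 147 and 9.01 in zone II and of 40.7, 84.2 and 64.3 in zone I, a difference of -0.05 ± 1.03 (SE, n = 3 per zone, limma adjusted p = 0.978). In both genes zone II arrays 1 and 2 stood above all 3 zone I arrays and zone II array 3 stood below them. Without zone II array 3 the differences were 0.69 for CYP79B2 (adjusted p = 0.0843) and 1.3 for CYP79B3 (adjusted p = 0.119), and neither was called. The 95% intervals with all arrays were -0.94 to 1.09 for CYP79B2 and -2.31 to 2.22 for CYP79B3, so the data do not show equal levels in the zones.

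**Figure D2:**
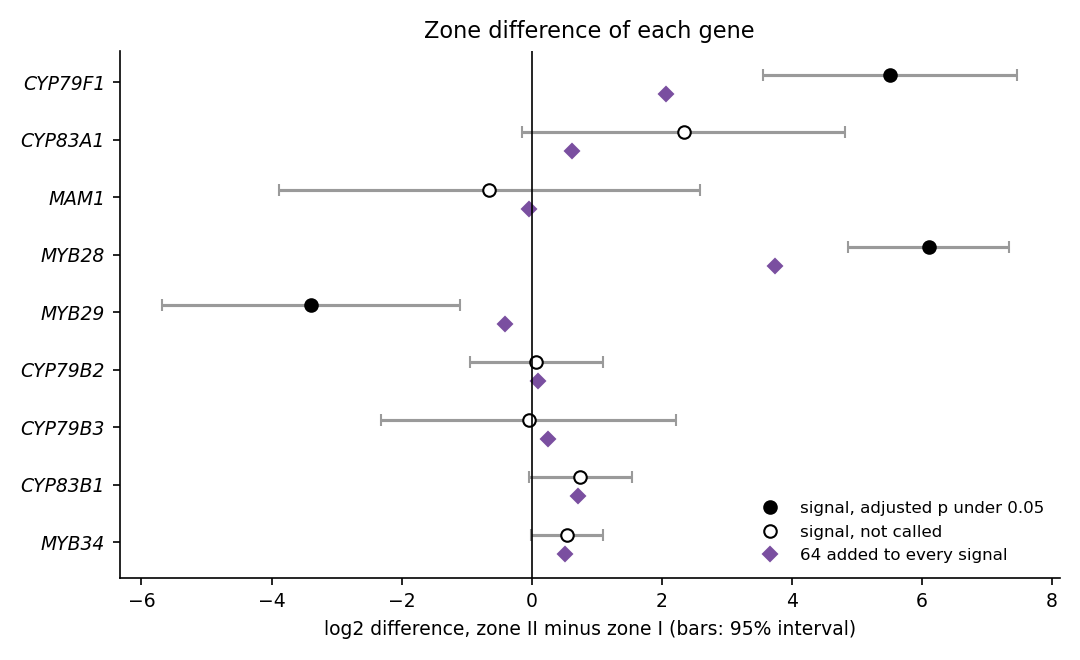
Log2 difference, zone II minus zone I, of each member, with its 95% interval from the limma fit as bars, filled circles for an adjusted p under 0.05 and diamonds for the difference with 64 added to every signal. CYP79F1 and MYB28 lie at 5.51 and 6.10 and stay above 2 with 64 added, whereas MYB29 moves from -3.39 to -0.41.

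The authors' deposited table of their own zone comparison calls 2 of the 9 members at an adjusted p under 0.05, where it calls 45.6% of all probe sets. In the authors' deposited table MYB28 has a log2 fold change of 4.72 (adjusted p = 2.4e-05) and CYP79F1 one of 2.16 (adjusted p = 0.00725). The direction of that table is not given in the sources used here, and zone II was assumed to be on top, since the table correlated positively with the differences above (r = 0.87 across probe sets, which are not independent). MYB34 is at 0.56 (adjusted p = 0.0569) in the authors' deposited table and CYP83B1 at 0.81 (adjusted p = 0.132). For MYB29 the authors' deposited table gives -0.17 (adjusted p = 0.301), so that gene is called from the signals alone.

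The rest of the pathway was read from 10 lists of 86 further genes, of which 77 had a probe set. Of these 77, 28 were called with zone II higher, against 18.1% of all probe sets, and 9 with zone I higher, against 19.8%. The median difference was 0.86, or 0.52 with 64 added, against -0.04 and -0.01 for all probe sets. The same shares of all probe sets, 18.1% toward zone II and 19.8% toward zone I, are the background for the counts of each list below. The lists were described by such counts and were not tested as sets. They were chosen with earlier results of these data known, so counts above these shares are no independent evidence.

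**Figure D3:**
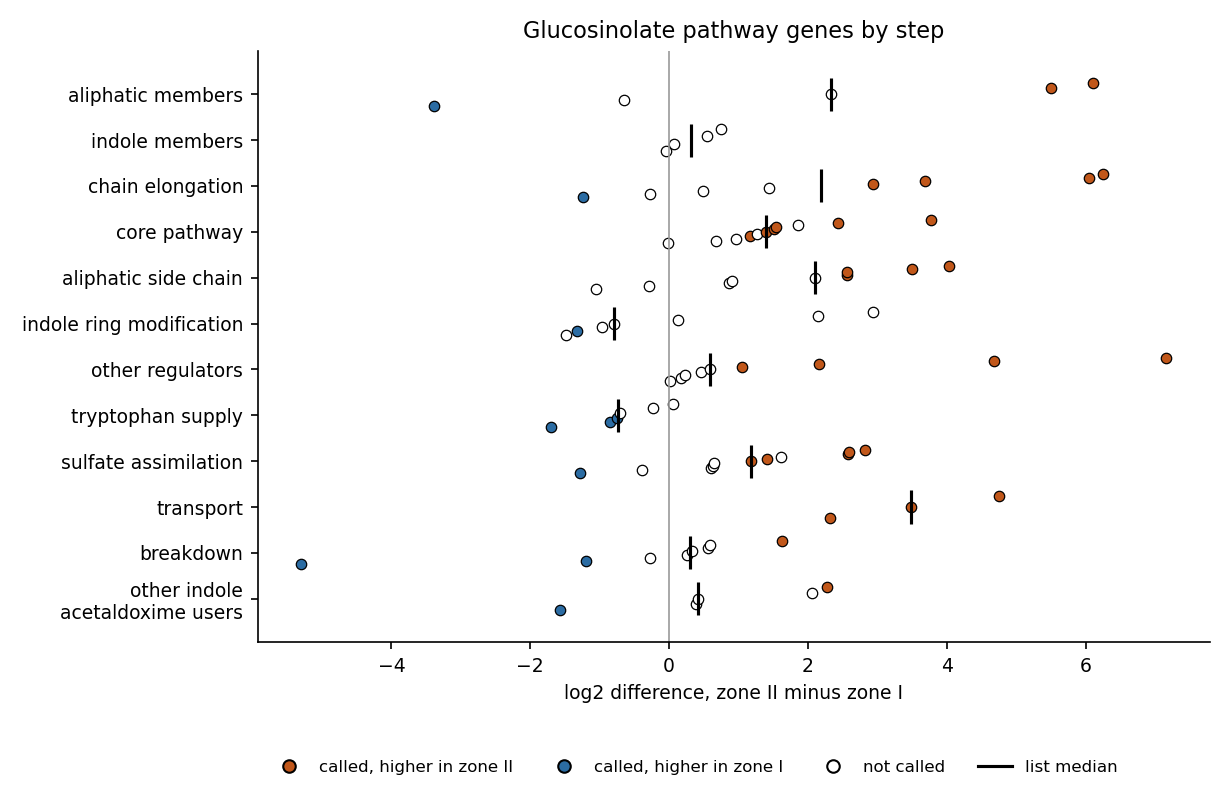
Log2 difference, zone II minus zone I, of every measured member and pathway gene, one row per group, with filled circles for calls at an adjusted p under 0.05 and a vertical bar at the group median. Transport lies wholly to the right, with a median of 3.48, while tryptophan supply and indole ring modification have medians of -0.73 and -0.80.

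Chain elongation genes, which lengthen methionine before CYP79F1 acts, were called with higher zone II signals in 4 of 8 measured cases and with higher zone I signals in 1. Their median difference was 2.19 (0.84 after adding 64). BAT5, the plastid carrier of the keto acids, had signals of 184, 163 and 50.1 in zone II, against 1.24, 1.60 and 1.71 in zone I. Its difference was 6.25 ± 0.99 (SE, limma adjusted p = 0.000485), or 1.50 with 64 added. The isomerase subunit gene IPMI SSU3 read 602, 545 and 311 in zone II and 15.7, 2.83 and 7.86 in zone I, with a difference of 6.05 (2.88 with 64 added). MAM3 read 273, 109 and 14.8 in zone II and 14.9, 2.11 and 6.68 in zone I, so the zones overlapped. Its call, at 3.68 (1.22 with 64 added), ended without zone II array 1 or 2 and without zone I array 2 or 3. It also ended with no intensity trend in the fit. Dropping array 1 in each zone ended it as well. BCAT3, an aminotransferase of the plastid, was called in the other direction at -1.24 ± 0.19 (SE, limma adjusted p = 0.000338), with signals of 759, 806 and 703 in zone II and of 1537, 1961 and 1897 in zone I.

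In the core pathway, 6 of 11 genes were called higher in zone II, with a median difference of 1.39 (1.02 after adding 64). None was called in the other direction by limma in any of the settings run, and none had an unadjusted p under 0.05 that way. SUR1, the lyase that cleaves the sulfur conjugate in both branches, had signals of 2734, 2655 and 1785 in zone II, against 856, 933 and 666 in zone I (1.54 ± 0.22, SE, limma adjusted p = 0.000274). SOT18, a sulfotransferase that completes aliphatic glucosinolates, read 1040.2, 1113 and 557 in zone II and 183, 208 and 109 in zone I (2.43 ± 0.35, SE, limma adjusted p = 0.000284). The glucosyltransferase UGT74C1 lay at 3.78, or 1.02 with 64 added, from zone I signals of 4.05 to 6.76, and its adjusted p was 0.0633 when array 1 was dropped in each zone. SOT16, the sulfotransferase that prefers indole glucosinolates, had signals of 1409, 819 and 376 in zone II and of 690.4, 488 and 316 in zone I, and its difference of 0.68 was not called (limma adjusted p = 0.269).

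Aliphatic side chain genes were called higher in zone II in 4 of 9, with a median difference of 2.1 (0.70 after adding 64), and 5 of the 9 had a mean signal under 64 in their brighter zone. GSL-OH, a dioxygenase that hydroxylates an alkenyl glucosinolate, had signals of 4608, 3822 and 1389.9 in zone II, against 434, 134 and 97.2 in zone I. Its difference was 4.03 ± 0.55 (SE, limma adjusted p = 0.000184), or 3.56 with 64 added. The flavin monooxygenase FMO GS-OX4, which oxidises the side chain sulfur, lay at 2.56, with zone II signals of 628 to 1044 and zone I signals of 106 to 183. AOP2, annotated as a transcribed pseudogene in this accession by RefSeq, lay at 3.50, or 0.73 with 64 added. AOP2 lost its call without zone II array 1 or 3, without zone I array 2 or 3, with array 1 dropped in each zone, with quantile normalization and with no trend.

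Indole ring modification genes had 1 of 7 called, toward zone I, where 19.8% of all probe sets were. Their differences ran from -1.48 to 2.94, with a median of -0.80 (-0.50 after adding 64). Toward zone II limma called none, and 1 gene had an unadjusted p under 0.05. The called gene, CYP81F3, which hydroxylates the indole ring, read 234, 361 and 1156 in zone II and 1226, 1198 and 1040.4 in zone I. Zone II array 3 lay within the zone I range, and the difference was -1.32 ± 0.46 (SE, limma adjusted p = 0.0433). The call ended when zone II array 1 or 2 or zone I array 1, 2 or 3 was left out, with array 1 dropped in each zone, with no trend and with robust eBayes. Without zone II array 3 it was -1.99 (adjusted p = 0.00023), and in that setting 1 gene of the list was also called toward zone II.

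Genes that supply tryptophan had 3 of 6 measured members called, all toward zone I, with a median difference of -0.73 (-0.69 after adding 64). Toward zone II limma called none, and none had an unadjusted p under 0.05. ASA2, an anthranilate synthase subunit, had signals of 314, 439 and 504 in zone II, against 1419, 1557 and 1095 in zone I (-1.71 ± 0.24, SE, limma adjusted p = 0.000254). IGPS, for the synthase of indole glycerol phosphate, lay at -0.85 and TSB2, a tryptophan synthase subunit on an s_at probe set, at -0.75 (limma adjusted p = 0.0249 and 0.0124). With no trend, and likewise without zone I array 1, only 1 gene of the list was called. IGPS also lost its call without zone II array 3, without zone I array 2 and with array 1 dropped in each zone, and TSB2 without zone II array 2.

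Among the other regulators, 4 of 9 were called, all toward zone II, with a median difference of 0.60 (0.52 after adding 64). MYB122 and MYB51, which act beside MYB34 on the indole genes, were among the 4. MYB122 had signals of 538, 388 and 255 in zone II, against 6.34, 2.08 and 1.37 in zone I, a difference of 7.17 ± 0.87 (SE, limma adjusted p = 8.38e-05), or 2.72 with 64 added. MYB51 read 76.3, 129 and 102 in zone II and 2.67, 2.41 and 9.19 in zone I, a difference of 4.69 ± 0.94 (SE, limma adjusted p = 0.00227), or 1.27 with 64 added. IQD1, a calmodulin-binding protein known to promote glucosinolate accumulation, lay at 2.16, with signals of 2614 to 3044 in zone II and 525 to 864 in zone I. These differences stand beside the 0.55 of MYB34, which was not called without the replicate block, so in that fit the 3 indole MYB genes were not called alike. The difference between them was not tested.

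All 3 transporters of the GTR group, which move intact glucosinolates into cells, were called with higher zone II signals, and their median difference was 3.48 (2.79 after adding 64). GTR3 had signals of 1483, 1902 and 1032 in zone II, against 139, 111 and 135 in zone I (3.48 ± 0.28, SE, limma adjusted p = 7.28e-06). GTR2 read 794, 605 and 475 in zone II and 13.2, 103 and 8.51 in zone I (4.76 ± 0.80, SE, limma adjusted p = 0.000772; 2.79 with 64 added). GTR1 lay at 2.32. The 3 calls held in all 15 alternatives.

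Sulfate assimilation, which provides the reduced and activated sulfur of the molecule, had 5 of 11 genes called toward zone II and 1 toward zone I, with a median difference of 1.18 (0.63 after adding 64). The root sulfate importer SULTR1;2 had signals of 968, 556 and 355 in zone II, against 75.4, 94.8 and 75.0 in zone I (2.83 ± 0.41, SE, limma adjusted p = 0.000253). APK2, a kinase that makes the sulfate donor of the sulfotransferases, lay at 2.60 ± 0.59 (SE, limma adjusted p = 0.00479), and the sulfate-reducing enzyme APR1 at 2.58 ± 0.41 (SE, limma adjusted p = 0.000551). The ATP sulfurylase gene APS3 was called higher in zone I at -1.28 (limma adjusted p = 0.0173), and this call ended without zone I array 1 (-1.08, adjusted p = 0.0867) and with array 1 dropped in each zone.

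Of 8 measured genes of glucosinolate breakdown, 1 was called toward zone II and 2 toward zone I. These counts were near the shares of all probe sets, 18.1% and 19.8%. The median difference was 0.30 (0.09 after adding 64). The TGG4 probe set, for a root myrosinase, had signals of 1.22, 32.0 and 31.8 in zone II, against 689, 229 and 485 in zone I. Its difference was -5.30 ± 1.14 (SE, limma adjusted p = 0.00353), or -2.55 with 64 added. It is of the s_at kind, so a near-identical copy cannot be told apart from it. NSP5, a nitrile specifier protein that steers the breakdown products, lay at -1.20, and the atypical myrosinase PEN2 was called higher in zone II at 1.62 ± 0.31 (SE, limma adjusted p = 0.00162). Of 5 measured genes on other routes from indole acetaldoxime, the nitrilase NIT3 was called higher in zone I at -1.58 and the camalexin enzyme PAD3 higher in zone II at 2.28, or 0.90 with 64 added. The call of PAD3 ended without any 1 of the 3 zone II arrays, without zone I array 2 or 3, with array 1 dropped in each zone, with the replicate number as a block and with quantile normalization.

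Several members have pathway genes as direct neighbours among protein-coding genes in the TAIR10.1 annotation. MAM1 lies next to MAM3, and their differences were -0.65 and 3.68. MYB29 lies next to MYB76, another aliphatic MYB, which was named for its position and had signals of 1.50, 1.63 and 34.0 in zone II and of 1.01, 39.8 and 2.02 in zone I. CYP79B2, at 0.07, lies next to APK2, at 2.60. In these pairs 1 gene was called where its neighbour was not, and the difference within a pair was not tested. MAM3 was called in only 2 and MYB29 in only 1 of the 6 fits with 1 array left out. MAM1, MYB29 and MYB76 stayed under 64 on every array.

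The genes most alike in signal over the 6 arrays were found by Pearson correlation with the mean standardised profile of the members whose brighter zone averaged at least 64, among 10805 probe sets above the median signal. In the aliphatic branch 2 of 5 measured members, CYP79F1 and MYB28, made the profile. Both were bright in zone II alone, so their profile is close to the zone contrast itself and does not stand for MYB29, CYP83A1 or MAM1. The nearest genes were RD2, AT5G20700, AT2G44300, 4CL5 and CCR1, with r of 0.998 to 1.00 and zone differences of 2.28 to 6.25. For the indole profile, made of CYP79B2, CYP83B1 and MYB34, they were AT3G50910, SOT16, GBF4, AT3G01560 and NPL41, with r of 0.978 to 0.989 and zone differences of 0.17 to 0.68, none of them called. The points share 6 arrays and 2 zones, so the values describe likeness on these arrays only. SOT16 was the single pathway gene among the 10. Pathway genes with a mean signal below the median of all, such as IPMI SSU3, MYB122 and BAT5, were not candidates. Their absence therefore says nothing about their likeness to the aliphatic profile.

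Arrays of one zone differed in the level of these genes. All 5 members with a zone II mean of at least 64 had their lowest zone II signal on array 3. Among the pathway genes above that level, 43 of 61 (70.5%) had it there, against 37.0% of all probe sets. The median deviation of these 61 genes from their zone mean was -0.41 on array 3 and 0.39 on array 1 (log2), against -0.02 and 0.02 for all probe sets. In zone I, 25 of 49 pathway genes (51.0%) were lowest on array 3, against 29.4% of all probe sets. The summed signals of all 7 marker lists were also lowest in zone II on array 3, but the single genes did not all follow. Of the root hair genes, COBL9 was highest on array 3 and EXPA18 lowest on array 2, while EXPA7 and RHS19 were lowest on array 3. IRX3 and APL were lowest on array 1, while the other xylem and phloem genes were lowest on array 3. CYCB1;1, SMB and BRN2 were lowest on array 3, whereas KN and CDKB2;1 were lowest on array 2. PLT1, PLT2, FEZ and BRN1 were lowest on array 1. Without zone II array 3 the indole members lay at 0.69 (CYP79B2), 1.3 (CYP79B3), 1.01 (CYP83B1, adjusted p = 0.0544) and 0.71 (MYB34, adjusted p = 0.0565), none of them called. The origin of the array's lower signals was not tested.

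**Figure D4:**
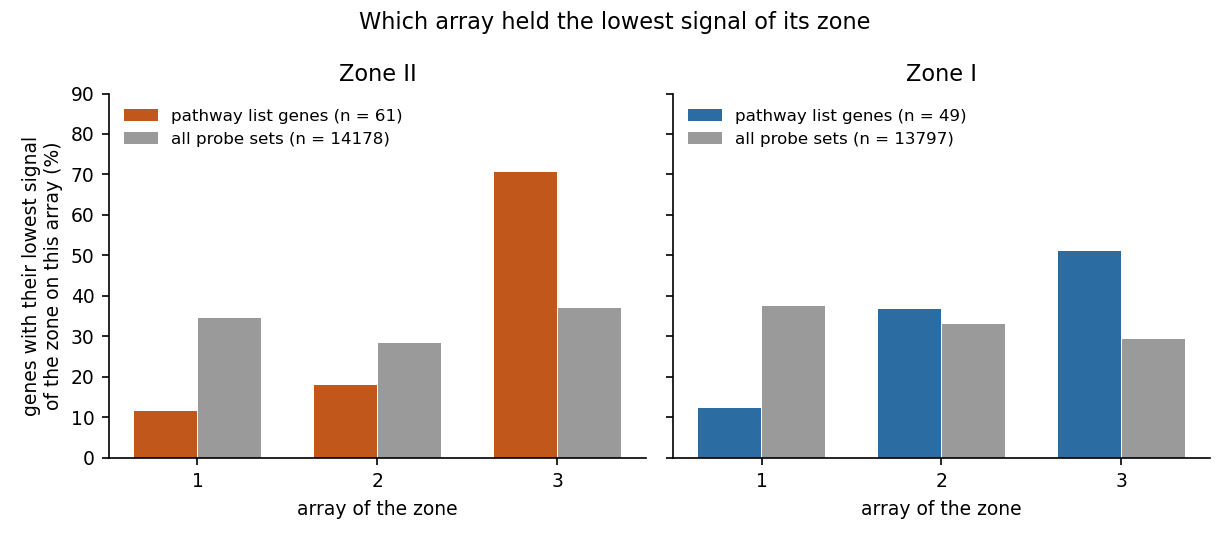
Share of genes whose lowest signal of the zone fell on each array, for pathway genes (coloured bars) and for all probe sets (grey bars), limited to those with a zone mean of at least 64. In zone II, 70.5% of pathway genes were lowest on array 3, against 37.0% of all probe sets.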

How the data were processed

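Of 22810 probe sets in the deposited table of signal intensity, 64 control probe sets were left out and 22746 tested. Per the submitters' processing notes, the authors made these intensity values with MAS5 and Affymetrix Expression Console, and no version or setting is given. On each array the 2% trimmed mean was 500.05, so the authors had scaled the deposited values. The authors also deposited log2 fold changes with p-values and adjusted p-values, for which the sources used here name no test. The labels' growth text also describes cell cultures, which no sample's own labels name.

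Log2 of the signal, with no offset and no filter, was compared between zone II and zone I with limma 3.58.1 in R 4.3.3 (lmFit, eBayes with intensity trend, no block, two-sided, Benjamini-Hochberg over all probe sets, called under 0.05). Intervals are 95%. The fit was tested on simulated data. Probe sets were named by the deposited loci, of which 22091 of 22591 were found in RefSeq TAIR10.1. No genome build is given with the files, so no coordinates are printed. Promoter and protein sequences were not analysed here. From each list the 3 called genes with the largest difference and the called gene furthest against the majority were named. The members, lists and the doubt about the first arrays were chosen with earlier results of these data known. The number of arrays limits the precision. Figures were drawn with Python 3.11.15 and matplotlib 3.10.9.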

Additional observations from a re-analysis of the deposited data

How the results depend on the processing

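The fit was repeated with a replicate block, with 16 or with 64 added, with quantile normalization or equal medians, and after removal of the probe sets whose mean log2 signal was below the 40th percentile. It was also repeated with robust eBayes, with no trend, without each array in turn and without array 1 of both zones. Calls over all probe sets stayed between 7081 and 9159, against 8623. Among the 77 pathway genes calls stayed between 31 and 40, against 37, and 29 of the 50 left after the percentile filter were called. Leaving out 1 array gave 7095 to 8293 calls in all, 2 to 3 among the members and 31 to 40 among pathway genes. With the replicate block 5 members were called instead of 3, the additions being CYP83B1 (adjusted p = 0.0109) and MYB34 (adjusted p = 0.0408). The samples share only a number. Deviations of same-numbered arrays correlated at 0.0041, 0.036 and 0.0373, and at 0.0382, 0.046 and 0.0843 for probe sets above the median signal. On both counts every array correlated best with its own number. Among pathway genes with a zone mean of at least 64, array 1 was highest for 67.2% in zone II and 61.2% in zone I. Of all probe sets above that level, 38.3% and 32.3% were highest there. After the removal of dim probe sets 1 of the 4 members left, MYB28, was called, and CYP79F1 and MYB29 were no longer tested. Some uncalled differences changed sign. MAM1 lay at -1.97 to 0.49 with 1 array left out. CYP79B2 lay at -0.29 to 0.69 with 1 array left out, at -0.33 without the first arrays and at -0.000148 with equal medians. CYP79B3 lay at -0.73 to 1.3 with 1 array left out, at 0.19 with 16 added and at 0.24 with 64 added. The median difference of all probe sets was -0.04, and -0.15 after quantile normalization. Signals below 64, without detection calls, limit what can be said of MYB29, MAM1, CYP83A1 and CYP79B3. They also limit the zone I side of MYB28 and CYP79F1, whose plain folds are set against signals not shown to be above background.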
